A study of Mus musculus with 3 samples.

Results

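The interferon regulatory factor (IRF) genes Irf1, Irf2, Irf3, Irf4, Irf5, Irf7, Irf8 and Irf9 were described in mouse CD4+ T cells by ATAC-seq, an assay that maps open DNA by where a transposase can insert adapters. The members were the 8 genes of this family chosen by name, out of 21900 protein-coding genes in the annotation used. Joining peaks of the 3 deposited lists wherever they shared at least 1 bp gave 57457 regions. A region belonged to a gene when that gene's annotated span was the nearest within 100 kb. By this rule 54 of the 57457 regions lay at the 8 genes, the farthest 71.5 kb from Irf8, and no region beyond the limit had a member as its nearest gene. The rule uses only where regions lie, not the presence or height of their peaks, but the family was picked with earlier results of these data known. The nearest gene is a position and is no evidence that a region acts on it.

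The divided fraction held CBir1 T cells that had diluted CellTrace Violet, a dye lost at each cell division. The undivided fraction held CBir1 T cells that had kept it, and the polyclonal fraction held the recipients' own CD4+ T cells without the CBir1 receptor. CBir1 cells carry a transgenic receptor for a flagellin of gut bacteria, and they were transferred as naive CD4+ cells from transgenic spleens into 4 wild-type C57BL/6J mice. Every recipient was given DSS (dextran sulfate sodium, an agent that injures the lining of the colon) at 2% in its drinking water for 7 days. All also received 1 mg/kg FTY720, a drug that holds lymphocytes in lymph nodes, on days 7, 10 and 13. Cells came from the colon-draining mesenteric lymph nodes on day 14 after DSS began, and the labels used here give no ages. Each pool combined a fraction from 2 mice, and duplicate pools were prepared. Only 1 list of peaks stood for each fraction, its use of the duplicates not being stated, so a fraction is treated as 1 library. Differences below are therefore without replication, and p-values were not computed. No library came from untreated mice, so all values describe T cells after DSS and FTY720.

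IRF proteins share a DNA-binding domain that reads GAAA-containing elements, the core of the interferon-stimulated response element. IRF3, IRF7 and IRF9 act in the type I interferon circuit, IRF1 and IRF2 compete for the same elements downstream of interferon receptors, and IRF5 drives inflammatory cytokine genes downstream of Toll-like receptors. IRF4 is induced by antigen receptor signalling and, bound together with BATF and JUN proteins, is required for several effector fates of CD4+ T cells, whereas IRF8 is known best from B cells, dendritic cells and macrophages and pairs with the ETS factor PU.1.

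The stretches of 250 bases upstream of the annotated start sites of 4 members are shown because they lie in promoter regions open in every fraction and differ in the elements they hold. The sequences are from RefSeq, build GRCm38.p6 (the assembly of mm10), plus strand, written 5′ to 3′. Capitals mark the interferon-stimulated response element and the gamma-activated site.
Irf1, chr11:53769764-53770013: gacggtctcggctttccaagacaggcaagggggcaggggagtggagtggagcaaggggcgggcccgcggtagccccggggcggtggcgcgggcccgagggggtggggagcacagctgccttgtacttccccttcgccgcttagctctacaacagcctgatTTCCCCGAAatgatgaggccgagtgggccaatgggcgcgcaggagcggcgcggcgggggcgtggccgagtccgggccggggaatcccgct
Irf2, chr8:46739495-46739744: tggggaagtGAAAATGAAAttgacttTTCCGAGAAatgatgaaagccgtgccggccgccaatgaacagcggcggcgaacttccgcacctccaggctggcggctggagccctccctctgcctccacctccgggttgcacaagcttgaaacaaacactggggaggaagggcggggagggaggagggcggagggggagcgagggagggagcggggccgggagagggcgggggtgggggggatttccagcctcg
Irf4, chr13:30748983-30749232: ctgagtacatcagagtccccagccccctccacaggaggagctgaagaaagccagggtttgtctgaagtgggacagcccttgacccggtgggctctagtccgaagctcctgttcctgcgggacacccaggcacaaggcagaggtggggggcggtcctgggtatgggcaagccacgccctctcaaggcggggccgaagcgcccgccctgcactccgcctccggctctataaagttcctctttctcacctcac
Irf8, chr8:120736108-120736357: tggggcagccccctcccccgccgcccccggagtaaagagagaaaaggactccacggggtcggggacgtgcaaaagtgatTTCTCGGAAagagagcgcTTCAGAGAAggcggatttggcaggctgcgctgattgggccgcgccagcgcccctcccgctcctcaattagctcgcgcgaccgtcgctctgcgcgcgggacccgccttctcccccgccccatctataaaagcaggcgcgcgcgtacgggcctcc

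Motifs were searched as letters on both strands in 11 RefSeq windows of the 8 genes, each running from 250 bases before to 50 after a start site, and in all 32851 windows of the same kind. The interferon-stimulated response element, searched as 2 copies of GAAA with any 2 bases between them, was in 1 of the 11 windows (Irf2) and in 3.44% of all windows. The ETS and IRF composite element, GGAA and GAAA with any 2 bases between them, was also in the Irf2 window alone among the 11 and overlapped that match, and 2.72% of all windows held it. The gamma-activated site, TTCNNNGAA, was in 3 of the 11 windows and in 8.30% of all windows. Irf1 and Irf2 held 1 such site each, and Irf8 held 2, at -171 to -163 and -153 to -145 from its start site. The kappa B site was in the Irf1 and Irf2 windows and in 8.46% of all windows. The AP-1 site, TGANTCA, was in none of the 11 windows and in 7.81% of all windows. None of the 11 held an AP-1 and IRF composite element with a spacer (TTTC, any 4 bases and the AP-1 site; 0.119% of all windows) or without it (GAAA directly before the AP-1 site; 0.125%). A match describes these letters in this window. The distal regions, and the parts of promoter regions outside these windows, were not searched, since no genome sequence was used here.

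The height of a peak is given as its summit pileup, the number of reads stacked at its highest base, recovered from the deposited statistics. The divided list held 47963 peaks with a median pileup of 31 reads, the undivided list 41876 with a median of 30, and the polyclonal list 44426 with a median of 27. In the 32680 regions open in all 3 fractions the median pileup ratio was 1.21 for divided over undivided and 1.19 for divided over polyclonal cells, and 0.989 for undivided over polyclonal cells. Scaled ratios below are pileup ratios divided by these medians, so that 1 is the typical shared region. Their 95% intervals are exact and cover counting error only, and reads that are not independent molecules would widen them. All 8 T cell markers, among them Cd3e, Cd4 and Lck, had a peak at a gene end in each of the 3 libraries. A library without a peak in a region has no value there, which is not a pileup of 0. Peaks near the calling limit (−log10 q under 2) had a median pileup of 6 reads in divided cells, 5 in undivided cells and 5 in polyclonal cells.

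Most of the chromatin called at the IRF genes was open in every fraction. Of the 54 regions, 36 were called in all 3 libraries, which is 66.7% (95% Wilson interval 53.4 to 77.8), beside 56.9% of all regions. This interval includes 56.9%, and it treats regions as independent though many lie at the same gene. Divided cells alone held 9 regions (16.7%, beside 14.3% of all regions), undivided cells alone 1 (1.85%, beside 6.30%) and polyclonal cells alone 4 (7.41%, beside 7.49%). Divided and undivided cells shared 1 region without polyclonal cells (1.85%, beside 3.96%). Divided and polyclonal cells shared 2 without undivided cells (3.70%, beside 7.07%), and undivided and polyclonal cells shared 1 without divided cells (1.85%, beside 3.99%). The 36 regions were wide and high, with a median width of 906.5 bp and a median highest pileup of 50 reads. The other 18 had a median width of 227.5 bp and a median highest pileup of 10 reads, and 7 of them reached a −log10 q of 5. All 8 promoter regions, which overlap the window of 300 bases at an annotated start site, were called in all 3 fractions. So were 9 of the 15 regions inside a gene, 10 of the 15 upstream and 9 of the 16 downstream. No shares over all regions by position stand beside these counts, so they cannot be read as particular to the IRF genes.

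**Figure D1:**
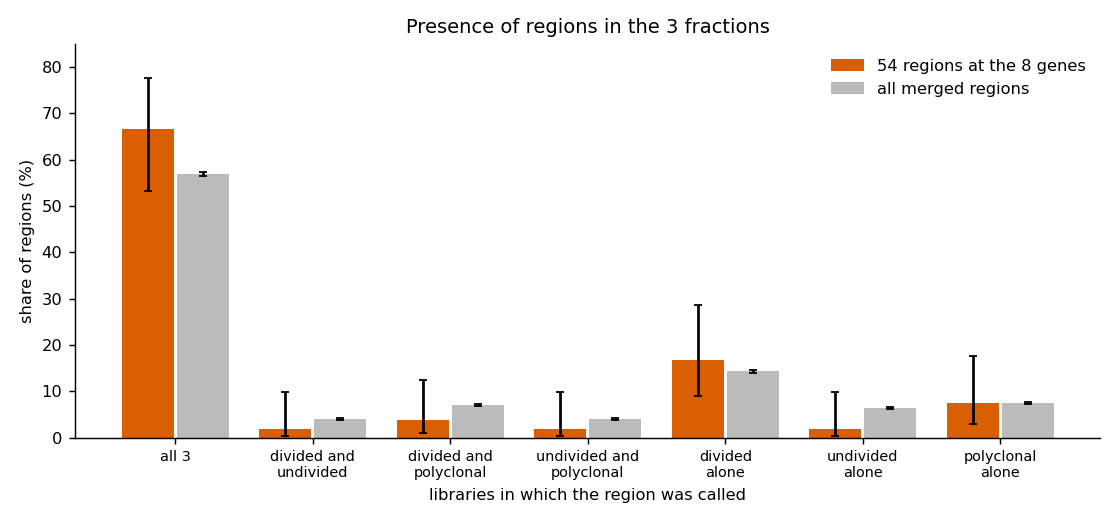
Share of regions, in percent, by the libraries in which they were called, for the 54 regions at the 8 IRF genes (orange) and for all 57457 regions (grey); bars start at 0 and error bars are 95% Wilson intervals. At the IRF genes 66.7% of regions were open in all 3 fractions and 16.7% in divided cells alone. The intervals treat regions as independent, though many lie at the same gene.

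Regions called in divided but not in undivided cells numbered 11 of 54 (20.4%), beside 21.4% of all regions, and 2 regions were called in undivided but not in divided cells (3.70%, beside 10.3%). With a −log10 q of at least 5 in the library that had the peak, these counts were 5 (12.4% of all regions) and 1 (4.94%). Divided but not polyclonal cells held 10 regions (18.5%, beside 18.3%), and polyclonal but not divided cells held 5 (9.26%, beside 11.5%), with 4 and 1 at the stricter limit (9.72% and 4.99% of all regions). Undivided but not polyclonal cells held 2 regions (beside 10.3%), and polyclonal but not undivided cells held 6 (beside 14.6%), with 1 and 2 at the stricter limit (4.54% and 6.74%). The divided library had the most peaks and the highest median pileup, and its one-sided calls at the IRF genes made up about the same share as over all regions.

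Among regions called in both libraries of a pair, few differed 2-fold. Divided over undivided cells had 2 of 37 regions at 2-fold or more higher (4.28% of all such regions) and 0 at 2-fold or more lower (3.44%). Divided over polyclonal cells had 3 of 38 higher (3.59%) and 0 lower (2.22%), and undivided over polyclonal cells had 1 of 37 higher (1.38%) and 0 lower (1.70%). The regions past 2-fold were at Irf4, Irf2 and Irf1 and are described with those genes. Over the 36 regions open in all 3, the median scaled ratio was 0.993 for divided over undivided, 1.1 for divided over polyclonal and 1.1 for undivided over polyclonal cells, beside 1 for all 32680 by construction. With pileups scaled by each library's lowest local background instead, these medians were 0.80, 0.939 and 1.18, so the second turned below 1, while the medians of all 32680 regions moved to 0.806, 0.852 and 1.06. Undivided over polyclonal cells had 29 of 37 scaled ratios above 1 (78.4%), beside 50.5% of all regions called in both. Among the regions open in all 3, these were 10 of 11 at Irf2, 7 of 8 at Irf4, 5 of 6 at Irf1 and 4 of 7 at Irf8. Divided over polyclonal cells had 27 of 38 above 1 (71.1%, beside 51.9%), and divided over undivided cells 18 of 37 (48.6%, beside 50.4%). Scaled by the lowest background instead, 10 of the 36 regions open in all 3 stood above 1 for divided over undivided cells, beside 23.9% of all such regions. By that scaling 16 stood above 1 for divided over polyclonal cells (27.2% of all) and 30 for undivided over polyclonal cells (59.5% of all). Regions of 1 gene and of 1 library share their source, and these shares have no test.

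**Figure D2:**
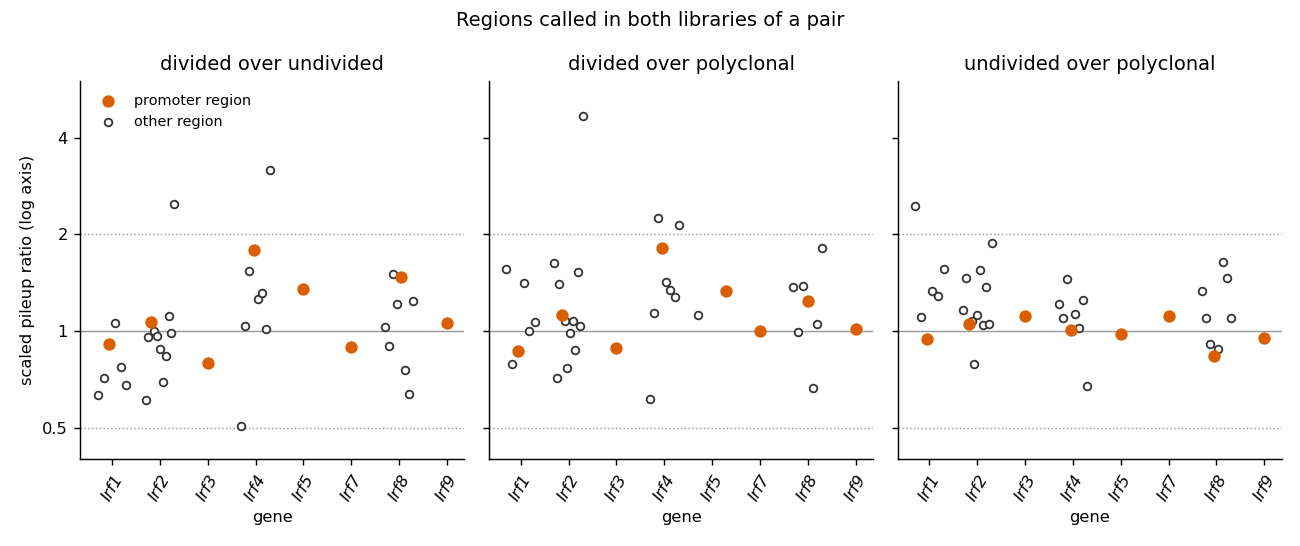
Scaled summit pileup ratio (log axis; 1 is the median of regions open in all 3 fractions, dotted lines mark 2-fold) of each region called in both libraries of a pair, by gene; orange points are promoter regions and open circles other regions, with 1 library per fraction. Points of Irf4 lie mostly above 1 for divided over undivided cells, at a median of 1.29, and those of Irf1 mostly below 1, at a median of 0.745.

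The promoters ranged widely in height, and their order was nearly the same in the 3 fractions. Irf2 was highest, at 212 reads in divided cells, 165 in undivided cells and 158 in polyclonal cells. Irf9 followed, at 191, 149 and 158 reads in divided, undivided and polyclonal cells, with Irf1 next at 137, 124 and 133. Irf2 and Irf9 were level in polyclonal cells, and their counting intervals overlapped in every library. Those of Irf9 and Irf1 overlapped in undivided and polyclonal cells and not in divided cells. Irf5 was lowest in every fraction, at 57 reads in divided cells, 35 in undivided cells and 36 in polyclonal cells. In between, Irf3, Irf4 and Irf8 changed places. Irf4 stood above Irf3 in divided cells and below it in undivided and polyclonal cells. Irf8 was level with Irf7 in divided cells and below Irf7 and Irf3 in the others. As a share of the summed pileup of the 8 promoters, which does not depend on the scaling, Irf4 made up 11.3% (95% Wilson interval 9.51 to 13.3) in divided cells, 6.81% (5.27 to 8.76) in undivided cells and 6.76% (5.23 to 8.69) in polyclonal cells. These intervals do not overlap between divided cells and either of the others. The Irf4 summit lay 627 bases upstream of the start site in divided cells, 92 in undivided cells and 41 in polyclonal cells. The Irf4 shares therefore do not compare the same base. Irf8 made up 11.7% (9.86 to 13.7) in divided cells, 8.54% (6.80 to 10.7) in undivided cells and 10.2% (8.30 to 12.5) in polyclonal cells, with intervals that overlap. The share was chosen as a measure after the promoter values were seen, and it covers counting error only.

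**Figure D3:**
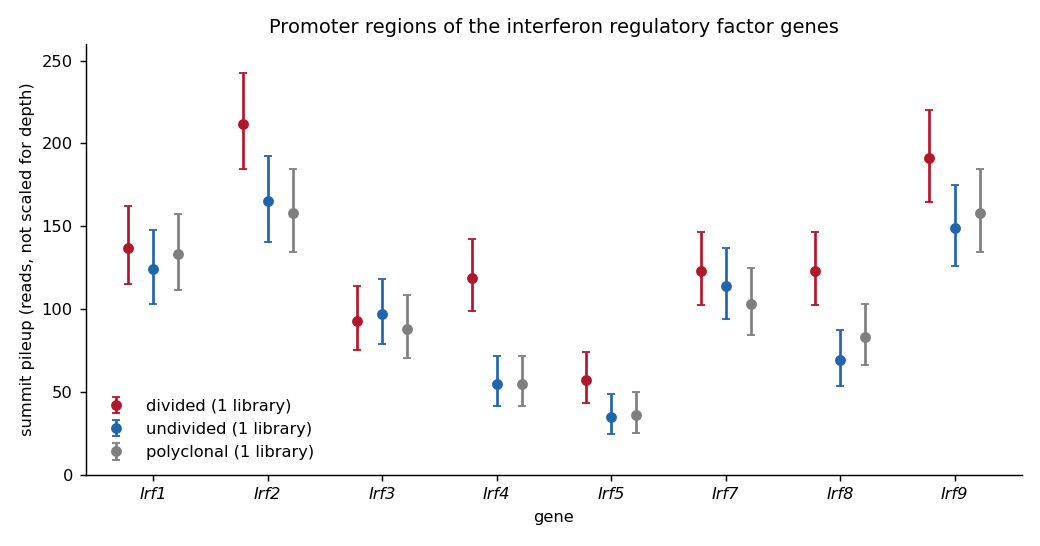
Summit pileup in reads, not scaled for depth, of the promoter region of each IRF gene in divided, undivided and polyclonal cells (1 library each); bars are exact 95% Poisson intervals. Irf4 stood at 119 reads in divided cells, against 55 in undivided and 55 in polyclonal cells, and Irf8 at 123 against 69 and 83. The Irf4 summit lay 627 bases upstream of the start site in divided cells, 92 in undivided cells and 41 in polyclonal cells.

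Irf4, whose product is a dose-dependent driver of T cell activation and effector differentiation, had 8 regions (chr13, gene span 30749233 to 30766981, plus strand), and all 8 were open in every fraction. Its promoter region (chr13:30748329-30750076) held 119 reads in divided cells, 55 in undivided cells and 55 in polyclonal cells. The undivided and polyclonal values were level and the divided value stood above both. In bulk libraries, a site open in more of the cells and a site more open in each cell cannot be told apart. The scaled ratio was 1.79 for divided over undivided (95% interval 1.29 to 2.52) and 1.82 for divided over polyclonal cells (1.31 to 2.55), and 1.01 for undivided over polyclonal cells (0.683 to 1.5). The Irf4 sequence printed above ends at this start site and holds none of the searched motifs. The promoter's strongest summit did not lie at the same base in the 3 libraries, since it was 627 bases upstream of the start site in divided cells, 92 in undivided cells and 41 in polyclonal cells. The summit of divided cells thus lies outside the searched window, and no motif was searched there.

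The next region upstream of Irf4 (chr13:30747477-30748010, ending 1.22 kb before the gene) held 91 reads in divided cells, 49 in undivided cells and 34 in polyclonal cells. It was 1.54 times as high in divided as in undivided cells on the scaled ratio (1.08 to 2.23) and 2.25 times as high as in polyclonal cells (1.5 to 3.44). It was separated from the promoter region by 318 bases, and a further called region followed the promoter by 165 bases at 44, 29 and 26 reads in divided, undivided and polyclonal cells. The 3 regions thus form a stretch of closely spaced peaks. The local background that the peak caller used there was raised as well, at 19.4 reads in divided cells, 8.82 in undivided cells and 10.0 in polyclonal cells at the promoter, or 16.0, 10.9 and 11.6 times the lowest background of the same library. The authors' fold enrichment divides by this local value. On it, after the same centring, the promoter ratio was 1.13 for divided over undivided and 1.22 for divided over polyclonal cells, and that of the upstream region 0.986 and 1.52.

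The strongest Irf4 region lay inside the gene, with its summit 11.3 kb past the start site (chr13:30760171-30761533), and held 125 reads in divided cells, 79 in undivided cells and 78 in polyclonal cells. Its scaled ratio was 1.31 for divided over undivided (0.982 to 1.76) and 1.35 for divided over polyclonal cells (1.01 to 1.81). Scaled by the lowest background these ratios were 1.06 and 1.15, and on the authors' fold enrichment 1.05 and 1.03. The region with the largest ratio of divided over undivided cells lay 10.6 kb past the gene (chr13:30777549-30778075), nearer to Irf4 than to its neighbour Exoc2, which was 11.4 kb away. It held 23 reads in divided cells, 6 in undivided cells and 9 in polyclonal cells, so it was low in all of them. Its scaled ratio was 3.18 for divided over undivided (1.26 to 9.54) and 2.15 for divided over polyclonal cells (0.958 to 5.27), with wide intervals. A region 6.18 kb before the gene (80, 64 and 59 reads in divided, undivided and polyclonal cells) and the region across the gene's annotated end (70, 57 and 46 reads) were near 1 in divided over undivided cells, at 1.04 and 1.02. The farthest upstream region, 15.9 kb before the gene, went the other way, at 11 reads in divided cells, 18 in undivided cells and 15 in polyclonal cells, with a scaled ratio of 0.507 for divided over undivided cells (0.216 to 1.13). Of the 8 regions, 7 had scaled ratios above 1 for divided over undivided and 7 for divided over polyclonal cells, with medians of 1.29 and 1.38. The median for divided over undivided cells was 1.04 when scaled by the lowest background, with 5 of 8 above 1, and turned to 0.922 on the authors' fold enrichment. For divided over polyclonal cells it was 1.18 and 1.06.

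**Figure D4:**
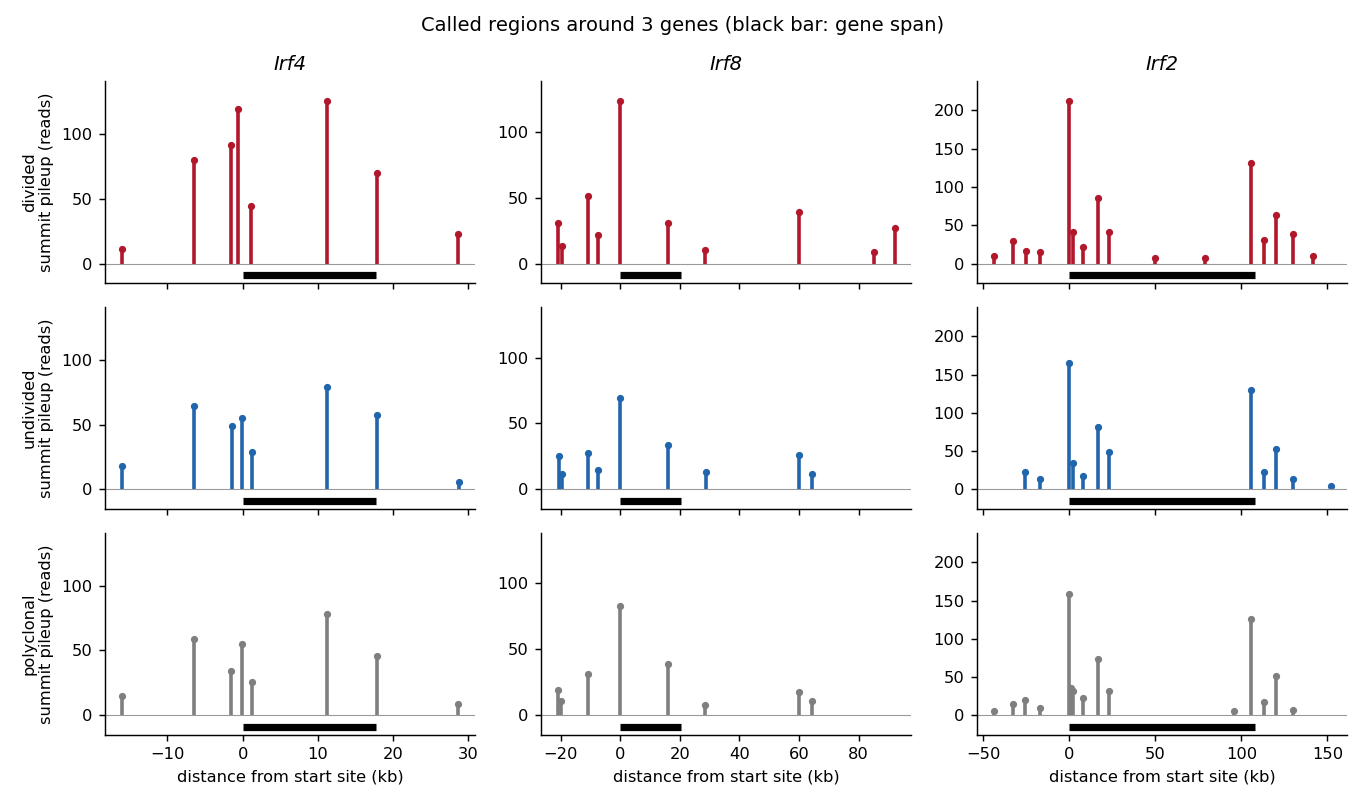
Summit pileup in reads of every called region at Irf4, Irf8 and Irf2 in divided, undivided and polyclonal cells (rows, 1 library each) against distance from the start site in kb; the black bar is the gene span and a missing stem means no called peak. All 8 Irf4 regions were called in each library, and the Irf8 region farthest downstream was called in divided cells alone at 27 reads.

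Irf1, an interferon-induced activator that favours Th1 responses, had 8 regions (chr11, gene span 53770014 to 53778374, plus strand), of which 6 were open in every fraction. Its strongest region lay 5.70 kb before the gene (chr11:53763060-53764317) and held 181 reads in divided cells, 210 in undivided cells and 192 in polyclonal cells. It was above the Irf1 promoter in every library, and it was lowest in divided cells, where pileups of shared regions were typically highest. Scaled, the ratio was 0.715 for divided over undivided (0.583 to 0.876) and 0.792 for divided over polyclonal cells (0.643 to 0.976), with 1.11 for undivided over polyclonal cells (0.905 to 1.35). On the authors' fold enrichment the first 2 ratios were 0.973 and 1.01. The local background there was 15.3 reads in divided cells, 15.9 in undivided cells and 15.6 in polyclonal cells. The promoter region (chr11:53769412-53770820), which holds the gamma-activated site shown above, had scaled ratios of 0.916 (0.713 to 1.18) and 0.866 (0.677 to 1.11) for divided over undivided and over polyclonal cells, both with intervals across 1.

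A region 16.3 kb past Irf1 (chr11:53794664-53795658) was lower than the promoter in every library, at 113 reads in divided cells, 121 in undivided cells and 95 in polyclonal cells. Its scaled ratio was 0.774 for divided over undivided cells (0.594 to 1.01). Farther upstream, 14.7 kb before the gene, a low region held 13 reads in divided cells, 17 in undivided cells and 7 in polyclonal cells, and it was the only region past 2-fold in undivided over polyclonal cells, at 2.46 (0.968 to 7.01). Of the 6 regions open in all 3, 1 had a scaled ratio above 1 for divided over undivided cells, and the median was 0.745, with 0.60 on the lowest background and 0.902 on the authors' fold enrichment. For divided over polyclonal cells the median was 1.03, with 3 of 6 above 1. Both Irf1 regions missing from undivided and polyclonal cells were weak, at 11 and 8 reads in divided cells, and lay 25.8 and 42.1 kb past the gene.

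Irf2, the antagonist of IRF1 at shared elements and an activator at some genes, is the longest of the 8 genes (chr8, 46739745 to 46847458, plus strand, 107714 bp) and had the most regions, 20, of which 11 were open in every fraction. Its promoter region (chr8:46739229-46740535) was the highest IRF promoter, with more reads than 97.9% of peaks in divided cells, 96.4% in undivided cells and 95.8% in polyclonal cells. Its scaled ratio was 1.07 for divided over undivided (0.865 to 1.31), 1.13 for divided over polyclonal (0.914 to 1.39) and 1.06 for undivided over polyclonal cells (0.844 to 1.32). All 3 intervals included 1. A region near the end of the gene (chr8:46844384-46845539) held 131 reads in divided cells, 130 in undivided cells and 126 in polyclonal cells. Scaled, this was 0.836 for divided over undivided (0.651 to 1.07) and 0.874 for divided over polyclonal cells (0.679 to 1.13), and both intervals included 1.

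Of the 3 regions past the gene that were open in every fraction, the nearer ones, 4.60 and 11.7 kb away, had scaled ratios of 1.1 (0.631 to 2.01) and 0.986 (0.673 to 1.45) for divided over undivided cells, and both intervals included 1. The farthest of them, 21.8 kb past Irf2 (chr8:46869232-46869871), held 39 reads in divided cells, 13 in undivided cells and 7 in polyclonal cells. All 3 libraries had a peak there and the divided value stood well above the others. After scaling, the ratio was 2.49 for divided over undivided (1.30 to 5.08) and 4.68 for divided over polyclonal cells (2.07 to 12.4), the highest of the 38 regions at the IRF genes in that pair, with 1.88 for undivided over polyclonal cells (0.697 to 5.56). It stayed past 1.5-fold under the lowest background (2.01 and 3.99) and on the authors' fold enrichment (1.86 and 3.24). Upstream, 32.4 kb before the gene (chr8:46706680-46707298), a region held 29 reads in divided and 15 in polyclonal cells and had no peak in undivided cells, with −log10 q values of 22.5 and 12.2. A region 34.1 kb past the gene had a peak in divided cells alone, of 10 reads with a −log10 q of 5.0, at the limit for naming. The remaining one-sided Irf2 regions were weaker. The tallest was called in polyclonal cells alone at 36 reads, against a local background of 13.5 reads and with a −log10 q of 4.77, and lay 6 bases from a region called in all 3.

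Irf3, Irf7 and Irf9, the factors of the type I interferon circuit, lie in gene-dense stretches and had 4 regions in all. IRF3 is present before infection and is activated by the kinase TBK1. Its promoter region (chr7:44997064-44998193) held 93 reads in divided cells, 97 in undivided cells and 88 in polyclonal cells, and also covered an end of Bcl2l12, which lies 9 bp away, so its signal cannot be assigned to either gene. The scaled ratio was 0.795 for divided over undivided (0.592 to 1.07) and 0.888 for divided over polyclonal cells (0.657 to 1.20). A second Irf3 region (chr7:44998222-44998712), 28 bases from the promoter region, was called in divided cells alone, at 26 reads against a local background of 7.21 and with a −log10 q of 5.68.

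IRF7, which interferon induces and which amplifies type I interferon production, had 1 region at its gene (chr7:141264852-141266681, gene on the minus strand). It held 123 reads in divided cells, 114 in undivided cells and 103 in polyclonal cells, and its summit lay 1.19 kb inside the gene in every library. Scaled, the ratio was 0.895 for divided over undivided (0.688 to 1.16) and 1.00 for divided over polyclonal cells (0.766 to 1.32). IRF9 is the DNA-binding subunit of the complex that carries the type I interferon signal to DNA. Its region (chr14:55603624-55604679) reached Rnf31 as well, 310 bp away, and the scaled ratios of its 191, 149 and 158 reads in divided, undivided and polyclonal cells were 1.06 for divided over undivided (0.854 to 1.33) and 1.02 for divided over polyclonal cells (0.819 to 1.26). None of the 3 promoters was past 1.5-fold in any pair on the scaled ratio.

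Irf8 had 11 regions (chr8, gene span 120736358 to 120756694, plus strand), of which 7 were open in every fraction. The promoter region (chr8:120735817-120736860), with both gamma-activated sites shown above, held 123 reads in divided cells, 69 in undivided cells and 83 in polyclonal cells. The divided value was the highest, and the undivided value the lowest. Its scaled ratio was 1.48 for divided over undivided (1.09 to 2.02), 1.25 for divided over polyclonal (0.935 to 1.67) and 0.841 for undivided over polyclonal cells (0.602 to 1.17). On the authors' fold enrichment the first of these was 1.01, with a local background of 6.69 reads in divided cells, 3.04 in undivided cells and 4.27 in polyclonal cells. The second annotated start site of Irf8 had no called region over its window.

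The Irf8 region farthest downstream (chr8:120828226-120828530) was called in divided cells alone, at 27 reads with a −log10 q of 21.6. It lay 71.5 kb past Irf8 in a stretch of 327691 bp without another protein-coding gene before Foxf1. A peak 7.57 kb before Irf8 (chr8:120728459-120728790) was called at 22 reads in divided and 15 in undivided cells and not in polyclonal cells. Another, 43.8 kb past the gene (chr8:120800488-120800753), was called at 12 reads in undivided and 11 in polyclonal cells and not in divided cells, the only region at the IRF genes with a −log10 q of at least 5 that divided cells lacked. Between them, a region 39.5 kb past the gene held 39 reads in divided cells, 26 in undivided cells and 18 in polyclonal cells, with a scaled ratio of 1.82 for divided over polyclonal cells (1.02 to 3.38). The region inside Irf8 had its summit 15.9 kb past the start site and ran the other way, at 31 reads in divided cells, 34 in undivided cells and 39 in polyclonal cells, or 0.668 for divided over polyclonal cells (0.403 to 1.10). The 7 regions open in all 3 had a median scaled ratio of 1.03 for divided over undivided cells, with 4 above 1.

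Irf5, best known from macrophages, had 3 regions (chr6, gene span 29526130 to 29541869, plus strand, overlapping that of Tnpo3). Its promoter region (chr6:29526426-29529265) was 2840 bp wide and low, at 57 reads in divided cells, 35 in undivided cells and 36 in polyclonal cells. After scaling, the ratio was 1.35 for divided over undivided (0.871 to 2.12) and 1.33 for divided over polyclonal cells (0.862 to 2.08), with intervals across 1. A region 8.58 kb before the gene (chr6:29517234-29517547) held 16 reads in divided and 12 in polyclonal cells and was not called in undivided cells, and a peak of 8 reads inside the gene was called in polyclonal cells alone.

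Irf4, Irf8 and Irf5 are also expressed in B cells or myeloid cells, so peaks at markers of those cells were counted beside them. Of 10 B cell markers, 4 had a peak at a gene end in divided cells, 2 in undivided cells and 3 in polyclonal cells. Their summed pileup was 145 reads in divided cells, 118 in undivided cells and 130 in polyclonal cells, of which Cd79a gave 97, 95 and 94, and Cd79b, Ms4a1 and Pax5 had none at a gene end in any library. At a gene end, Cr2 had 26, 23 and 25 reads in divided, undivided and polyclonal cells. Ebf1 had 12 reads in divided and 11 in polyclonal cells and no peak in undivided cells, and Blk had 10 in divided cells alone. Of 9 myeloid markers, 1 had such a peak in divided cells, 2 in undivided cells and 2 in polyclonal cells, with summed pileups of 27, 40 and 53 reads in divided, undivided and polyclonal cells, and Csf1r, Adgre1, Cd68 and Lyz2 had none. Cd14 gave 27, 26 and 31 of these reads, and Itgam 14 in undivided and 22 in polyclonal cells, with no peak in divided cells. Of 6 dendritic cell markers, 3 had a peak in divided cells, 2 in undivided cells and 2 in polyclonal cells. Their summed pileups were 210, 197 and 189 reads, and Zbtb46 and Siglech had none. Flt3 gave 25, 25 and 18 of these reads, and Clec9a gave 10 in divided cells alone. A peak within 1 kb of an end of Xcr1 gave 175, 172 and 171 of these reads. It need not belong to Xcr1, since the 1 region nearest to that gene had a different scaled ratio (0.776 for divided over undivided cells). Cd8a had none in any library, and Cd8b1 had 33 reads in divided cells, 51 in undivided cells and 63 in polyclonal cells. Over all regions nearest to these markers, 9 of 18 at B cell markers passed a −log10 q of 5 in divided cells while having no peak in undivided cells (50%, beside 12.4% of all regions), against 0 the other way. Pax5 gave 2 of the 9, away from its gene ends, and both were also 2-fold or more higher in divided over polyclonal cells. Myeloid markers had 10 of 30 such regions (33.3%) against 1, and dendritic cell markers 2 of 19 against 2. In divided but not polyclonal cells there were 4 regions at B cell markers (22.2%, beside 9.72%), against 1 the other way, and 7 at myeloid markers (23.3%) against 2. Among regions called in both libraries, the median scaled ratio of divided over undivided cells was 0.937 at B cell and 0.861 at myeloid markers. One-sided calls at B cell and myeloid markers were thus mostly in divided cells. In divided over undivided cells their shares, 50% and 33.3%, were above the 12.4% of all regions. The other way the shares were 0% and 3.33%, beside 4.94% of all regions. The scaled promoter ratios of Irf4, Irf8 and Irf5, a different measure, were above 1 for divided over undivided and over polyclonal cells. The part of other cells in those values was not tested.

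Around the family, genes that feed or partner the IRFs had a share of regions open in every fraction near or above that over all regions. The list of 13 upstream receptors, kinases and adaptors, from Ifnar1 to Sting1, had 109 regions, of which 61 were called in all 3 libraries (56.0%, beside 56.9% of all regions). The 11 DNA-binding partners had 76 regions, 48 of them in all 3 (63.2%), and the 3 IRF2 co-regulators 39, 25 of them in all 3 (64.1%). At a −log10 q of at least 5, regions called in divided but not in undivided cells numbered 11 at the upstream genes (10.1%), 6 at the partners (7.89%) and 4 at the co-regulators (10.3%), beside 12.4% of all regions. The reverse numbered 5, 1 and 1, beside 4.94% of all regions. Divided but not polyclonal cells held 7, 7 and 3 such regions at the upstream genes, partners and co-regulators (9.72% of all regions), and polyclonal but not divided cells 7, 1 and 0 (4.99%). Undivided but not polyclonal cells held 3, 4 and 2 (4.54%), and polyclonal but not undivided cells 10, 1 and 3 (6.74%).

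Batf, the AP-1 factor that binds DNA with IRF4, was the partner with the most one-sided regions in divided over polyclonal cells, 2 against 0, and had 2 against 1 in divided over undivided cells. These 2 regions held 24 and 44 reads in divided cells and were called there alone, the first 20555 bp outside the gene and the second inside it. A further region inside Batf held 38 reads in divided cells, 15 in undivided cells and 21 in polyclonal cells, a scaled ratio of 2.1 for divided over undivided cells. Batf3, a relative of Batf, had a region 696 bp outside the gene with 19 reads in divided and 7 in polyclonal cells and no peak in undivided cells. Ikzf3, which encodes the zinc finger protein Aiolos, had 2 regions against 0 in divided over undivided cells, at 26 and 21 reads in divided cells. Jund, a partner of BATF at composite elements, had 1 region called in undivided but not in polyclonal cells, at 85 reads in divided and 65 in undivided cells.

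Among the upstream genes, Jak2, a kinase of the interferon gamma receptor, had 3 one-sided regions against 0 in divided over undivided cells and 0 against 4 in undivided over polyclonal cells. The strongest of them by pileup, inside the gene, held 63 reads in divided and 47 in polyclonal cells and had no peak in undivided cells. Ifngr1, which encodes a chain of that receptor, ran the other way, with 0 against 3 in divided over undivided and 0 against 2 in divided over polyclonal cells. The 3 regions held 16 to 22 reads in undivided cells and lay 99855, 69148 and 7525 bp outside the gene. The highest region overlapping Ifngr1 was called in every library, at 179 reads in divided cells, 156 in undivided cells and 151 in polyclonal cells. Tbk1, the kinase that activates IRF3 and IRF7, had 3 against 1 in divided over polyclonal cells, and Ifnar2, a chain of the type I interferon receptor, had 0 against 1 in undivided over polyclonal cells. Irf2bpl and Irf2bp2, co-regulators of the family that binds IRF2, had 2 against 0 and 2 against 1 in divided over undivided cells. Where genes tied in these counts, the alphabetical order decided which were named.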

How the data were processed

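ATAC-seq libraries of divided CBir1, undivided CBir1 and polyclonal CD4+ T cells were analysed from 1 peak list and 1 summit list per fraction. The submitters' processing notes list Bowtie2 2.3.2, MACS2 2.1.0, bcl2fastq 2.17, Trimmomatic 0.33, cutadapt 1.12, SAMtools and Picard, with build mm10. A shift for the transposase offset, and the choice of reads or fragments for the pileup, were not stated. The deposited peak lists give for each peak a score (10 times the −log10 q-value, as a whole number), a fold enrichment over local background (a linear ratio), a −log10 q-value and a −log10 p-value. The summit lists as deposited hold that −log10 q-value again and were not used further.

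To obtain summit pileup and local background, the deposited fold was read as (pileup + 1)/(background + 1) and solved together with the −log10 p-value under a Poisson model. The peak with the highest −log10 q stood for each library in a region. Pileups came out whole within 0.001 for 99.96% of peaks in divided cells, 99.97% in undivided cells and 99.98% in polyclonal cells. The recovery was tested on simulated data. Lowest backgrounds were 1.21, 0.808 and 0.865 reads in divided, undivided and polyclonal libraries, and read totals were not stated. Peaks sharing at least 1 bp were merged, and regions were assigned to the nearest protein-coding span of RefSeq GRCm38.p6 within 100 kb (3022 regions had none), with 2 member regions tied between genes. Exons and introns were not told apart, since the annotation used gives spans only. A gene end is within 1 kb of a span's first or last base. Region and gene levels are not normalised for width.

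The members, lists and motifs were chosen with earlier results of these data known. Named singly were each member's strongest region (highest −log10 q), regions called in 1 library of a pair with a −log10 q of at least 5, and regions past a scaled ratio of 2, beside the promoters. From each pathway list the genes with the most lopsided one-sided counts were named, up to 2 per comparison. Alternatives were the lowest-background scaling, the authors' fold enrichment, a 1.5-fold limit, stricter −log10 q limits of 5 and 10, a 20 kb distance, an overlap requirement, tied regions left out, depth-limited calls and, chosen after seeing the data, strongest summits within 200 bp. Python 3.11.15, numpy 2.4.6, pandas 2.3.3, scipy 1.17.1 and matplotlib 3.10.9 were used.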

Additional observations from a re-analysis of the deposited data

How the results depend on the processing

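No paired analysis was possible because each fraction had 1 library and the lists carry no replicate numbers. The share of regions open in all 3 fractions was 79.5% within 20 kb of a gene. Region counts at the IRF genes moved as follows. Regions in divided but not undivided cells (11) numbered 6 and 3 at −log10 q limits of 5 and 10, applied to both libraries, and 4 within 20 kb; the reverse (2) numbered 5 at a limit of 10 and 0 within 20 kb. Regions in divided but not polyclonal cells (10) numbered 4 within 20 kb; the reverse (5) numbered 1, 2 and 3 at limits of 5 and 10 and within 20 kb. Regions in undivided but not polyclonal cells (2) numbered 6, 9 and 1 under the same 3 settings, and the reverse (6) numbered 3 and 1 at limits of 5 and 10. The excess of divided over undivided calls thus turned round at a limit of 10, and that of polyclonal over undivided calls at limits of 5 and 10. No shares over all regions stand beside these values, so the shifts cannot be read as particular to the IRF genes. The cause was not tested.

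At 1.5-fold, 5 regions were higher and 4 lower in divided over undivided cells, 8 higher and 1 lower in divided over polyclonal cells, and 5 higher in undivided over polyclonal cells. Scaled by the lowest background, 2 regions were 2-fold lower in divided over undivided cells and 1 was 2-fold higher in divided over polyclonal cells. On the authors' fold enrichment 1 was 2-fold higher in divided over undivided and 0 in undivided over polyclonal cells. The strongest Irf1 region stood at 0.576 (lowest background) and 0.973 (authors' fold) for divided over undivided cells and 1.01 (authors' fold) for divided over polyclonal cells, Irf2 at 0.859 (lowest background) and Irf8 at 1.01 (authors' fold) for divided over undivided cells. At a −log10 q of at least 5, 67.1% of regions at the upstream genes and 73.3% at the partners were open in all 3. No shares over all regions stand beside the counts and percentages given so far in this paragraph, so they cannot be read as particular to these genes. Under the overlap requirement, with tied regions left out and with depth-limited calls, region counts stayed within 1.5 times their main value (under the overlap requirement, polyclonal but not divided regions numbered 7 instead of 5, and undivided but not polyclonal regions 3 instead of 2). The restriction to summits within 200 bp was applied to the 2-fold counts alone and left them as they were; it leaves out the Irf4 promoter in both comparisons of divided cells, so the ratios there have no such alternative. The lowest-background scaling moved the median of all shared regions by -0.31 (divided over undivided), -0.23 (divided over polyclonal) and 0.08 (undivided over polyclonal) on the log2 scale.

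Every error given covers counting alone, since there was 1 library per fraction. Peaks near the calling limit had a median of 5 to 6 reads, so a missing call does not show a closed site.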
